A study of Sus scrofa with 20 samples.

Results

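Silencing of Polycystin-2 (PC2) was compared with a control siRNA in LLC-PK1 cells, an epithelial line from the pig proximal tubule. The comparison took the 3 libraries labelled siPC2 and the 4 labelled siNR, 7 of the 20 libraries of the series, and all 46295 transcripts of the deposited table. The siPC2 libraries carry the numbers 2, 3 and 4, and the siNR libraries the numbers 1 to 4. All cells were transfected with siRNA and kept in serum-free medium before harvest, so both groups share transfection and serum withdrawal. The siNR cells received a non-related siRNA and the siPC2 cells an siRNA against PC2. The methods state that the control siRNA was matched in concentration, whereas the description of the RNA-Seq experiment gives siNR at a higher concentration than siPC2. If the latter holds, the target and the dose of the siRNA cannot be told apart. The same description gives group sizes that differ from the labels, which were followed here. The cells are 1 clone of 1 line. Nothing says whether the libraries came from separate cultures, so that p-values measure only the spread between libraries. For the edgeR tests below, that spread was estimated from all 20 libraries of the series, not from these 7 alone.

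PC2 is a cation channel of the primary cilium and the endoplasmic reticulum. It forms a complex with Polycystin-1 (PC1), and loss of either protein in tubular cells causes autosomal dominant polycystic kidney disease. In that disease the epithelium loses its differentiated features and the kidney becomes fibrotic. The comparison addresses how far the epithelial transcriptome moves when PC2 is silenced alone. The table names Ensembl transcripts, and neither the file nor the reference tables pair them with genes. The PC2 mRNA and the markers of the proximal tubule were therefore not analysed here, and 4 transcripts are named below by their identifiers.

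The total estimated count was 37396285, 35523102, 50599719 and 42194371 in siNR replicates 1 to 4. It was 11790504, 36740001 and 28842912 in siPC2 replicates 2, 3 and 4. The siPC2 replicate 2 library was the shallowest of the 7: a normalized count of 50 there rested on 16.1 reads, against 39.1 to 61.1 reads in the others. In siNR replicate 1, 27680 transcripts were detected after thinning to one depth, against 26840 to 26920 in the other controls. Calls without each of these libraries are given below. Within each group, every pair of libraries differed by more than the sampling of reads alone gives (chi-square divided by its degrees of freedom, 12.4 to 48.7). The estimation of counts, which divides reads among transcripts, can add to this difference. The value thus cannot show whether libraries came from separate cultures, and each library was counted as 1 replicate.

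The make-up of the transcriptome differed more between the groups than within them. The share of reads that would have to be moved between transcripts to turn one library into another was computed after all 7 libraries had been thinned to the same depth. It ranged from 4.86% to 9.39% over the 6 pairs of siNR libraries (median 6.76%). Over the 3 pairs of siPC2 libraries it ranged from 4.11% to 7.15% (median 6.55%). Between siNR and siPC2 libraries it ranged from 17.3% to 23.2% over 12 pairs (median 19.6%), and so lay above every pair within a group.

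Of the 27702 transcripts with enough counts to be tested, 6133 (22.1%) were called changed, 3333 (12%) higher and 2800 (10.1%) lower with siPC2. A call needed an adjusted p no higher than 0.05 in edgeR's quasi-likelihood test, a log2 fold change beyond 0.6 in either direction and a normalized count averaging 50 or more over all 20 libraries. Without siPC2 replicate 2, 3121 were called higher and 2542 lower, and without siNR replicate 1, 3413 and 2879. The typical called change was close to 2-fold. The median log2 fold change was 0.99 among the transcripts called higher, a 1.98-fold rise, and -0.94 among those called lower, a 1.91-fold fall. Large changes among the calls were mostly rises. On the log2 scale, 409 called transcripts rose by more than 2 and 198 fell by more than 2. These made up 12.3% of the higher and 7.07% of the lower calls. The minimum mean count was taken over all 20 libraries, most of them from silenced cells. It thus admits a transcript high in silenced cells more readily than one high in siNR alone. The part of this minimum in the imbalance was not tested. Over the 20212 transcripts with a mean of at least 50, the quartiles of the log2 fold change were -0.45 and 0.50, and its 5th and 95th percentiles -1.25 and 1.47. In this group the median standard error was 0.161, and 3537 transcripts passed the adjusted p with a log2 fold change within 0.6. Another 1836 moved by more than 0.6 without passing it.

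The balance of higher and lower calls depended on the scaling. Of all calls, 54.3% were higher with TMM factors, which set the median log2 fold change at 0.0015. With the library totals alone, 69.0% were higher, and the median moved up by 0.14. With median-of-ratios factors 49.8% were higher, and with DESeq2 48.9%. The direction that held more calls is therefore not fixed by these data.

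**Figure D1:**
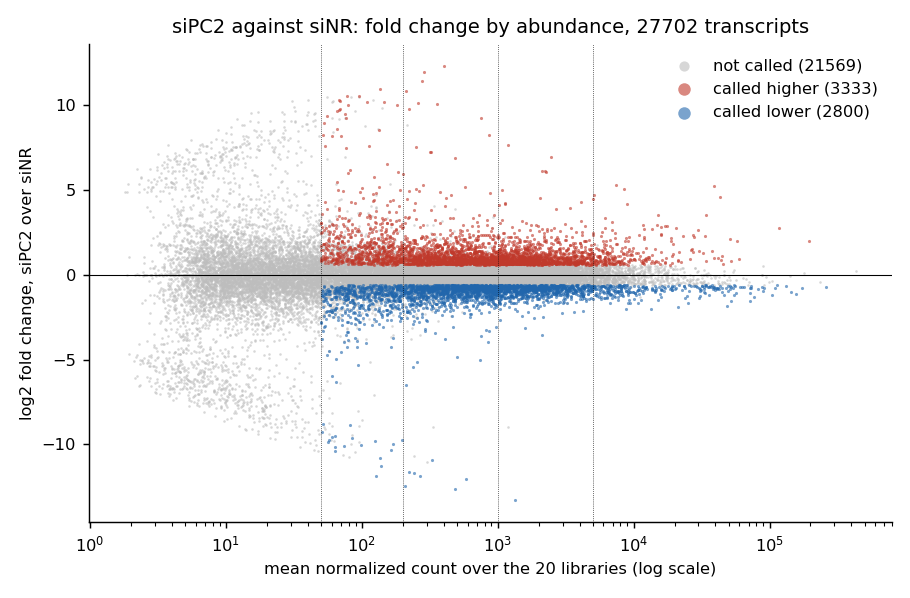
Log2 fold change of siPC2 over siNR (vertical axis) against the mean normalized count over the 20 libraries (horizontal axis, log scale), 1 point per tested transcript. The dotted lines stand at 50, 200, 1000 and 5000. The 3333 transcripts called higher are red, the 2800 called lower are blue and the others are grey. Folds beyond 5 in either direction lie mostly at mean counts under 50.

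The response was described in classes of abundance, set by the mean normalized count over all 20 libraries. From low to high abundance, the transcripts that passed the adjusted p became more frequent, while the size of the change fell up to a mean of 5000 and was larger again above it. In the class from 50 to 200 (4838 transcripts) the median size of the log2 fold change was 0.62, the median standard error 0.369, and 26.4% passed the adjusted p. In the class from 200 to 1000 (8032 transcripts) these values were 0.45, 0.166 and 46.7%. In the class from 1000 to 5000 (6044 transcripts) they were 0.41, 0.108 and 62.2%. At 5000 and over (1298 transcripts) they were 0.48, 0.110 and 68.2%. The median size of the change was thus 1.69 times its standard error in the lowest of these classes and 4.40 times in the highest. Below 50 the error was as large as the change: from 10 to 50 (5085 transcripts) the median size was 0.81 with a standard error of 0.822, and under 10 (2405 transcripts) 1.31 with 1.68.

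The share of transcripts called rose with abundance, from 24.9% between 50 and 200 to 31.0%, 31.9% and 39.4% in the next 3 classes. The share that moved by more than 0.6 on the log2 scale, called or not, showed no such rise. It was 51.4%, 37.3%, 32.6% and 39.75% from the lowest to the highest of these classes. In order of abundance, 13.4%, 16.5%, 18.4% and 19.03% of the 4 classes were called higher, and 11.5%, 14.5%, 13.5% and 20.3% were called lower. Large changes among the calls were most frequent in the low class. There, 24.2% of the called transcripts moved by more than 2 on the log2 scale, against 6.99%, 4.88% and 9.39% in the others. The standard error was largest in that class, so mainly large changes could pass the adjusted p there, which raises this share by construction. By these classes the tails were uneven at high abundance. At 5000 and over, 46 transcripts rose by more than 2 and 2 fell by more than 2, with the largest rise at 5.32 and the largest fall at -2.04. From 1000 to 5000, 80 rose by more than 2 and 14 fell by more than 2.

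Which direction led among the abundant transcripts depended on the libraries that defined abundance. Of the 20 libraries behind the classes, 16 came from silenced cells, so a transcript higher in all of them could enter a higher class. With classes set by the mean of the siNR and siPC2 group means, which weights both groups alike and was chosen after seeing the data, 13.9% of the transcripts at 5000 and over were called higher and 25.02% lower. With classes set by the siNR libraries alone, these shares were 6.59% and 30.8%, and with classes set by the siPC2 libraries alone 21.6% and 17.5%. By construction, a class of high level in 1 group holds more of the transcripts that are higher in that group. With the equally weighted classes, the median log2 fold change was -0.20 at 5000 and over, against 0.01 in the class from 50 to 200. The tails also depended on the classes. At 5000 and over, 30 called transcripts lay above 2 and 3 below -2 by the equally weighted classes, but 4 and 6 by the siNR libraries and 45 and 2 by the siPC2 libraries. From 1000 to 5000 these numbers were 71 and 18, 34 and 30, and 96 and 3. With library totals in place of TMM factors, 23.4% of the class at 5000 and over (by all libraries) were called higher and 12.9% lower. With only the siNR and siPC2 libraries in the model, and so in the means behind the classes, the shares were 12.2% and 26.8%.

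**Figure D2:**
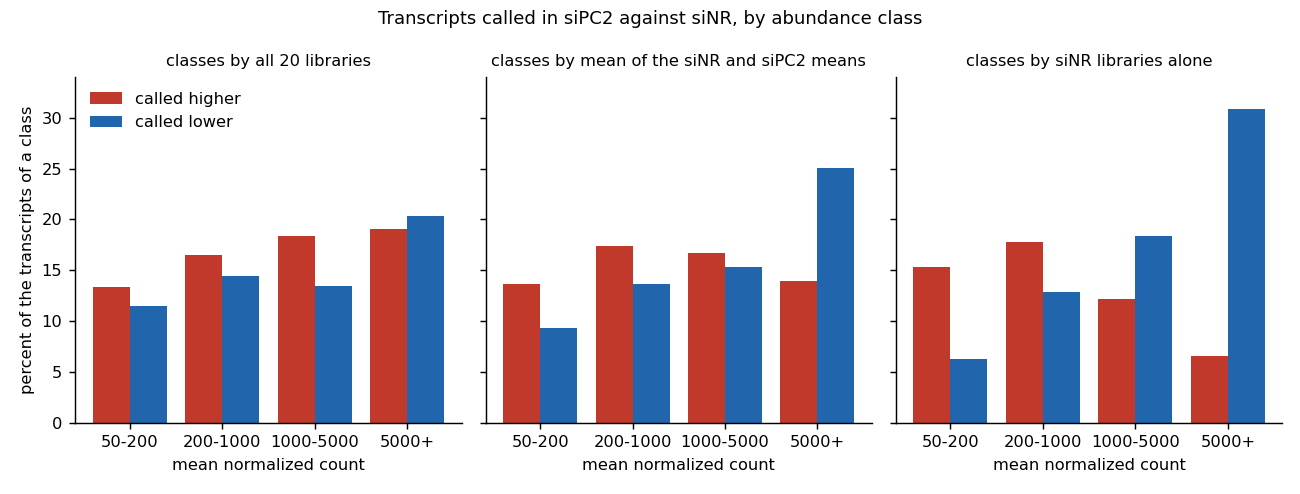
Percent of the transcripts in each abundance class that were called higher (red) and lower (blue) with siPC2, with the classes set by 3 different means of the normalized count. At 5000 and over, 19.03% were higher and 20.3% lower by all libraries, 13.9% and 25.02% by the mean of the 2 group means, and 6.59% and 30.8% by the siNR libraries.

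The same measure in single libraries gives the background of the control. Each siNR library was set against the mean of the other 3, and each siPC2 library against the mean of the 4 siNR libraries, on the log2 scale of normalized counts plus 1. From 1000 to 5000, 17.8% to 21.8% of the transcripts lay more than 0.6 above siNR in the siPC2 libraries and 12.8% to 16.6% more than 0.6 below. In the siNR libraries these shares were 0.298% to 2.83% and 0.397% to 1.56%. At 5000 and over, the siPC2 libraries had 18.6% to 21.3% above and 17.1% to 24.3% below, and the siNR libraries at most 3.85% and 3.0%. From 50 to 200 the control background was much larger, with 12.4% to 26.2% of the transcripts above and 11.7% to 16% below, against 28.5% to 31.4% and 23.98% to 33.5% in the siPC2 libraries. The highest of these control shares, 26.2%, was that of siNR replicate 1, which comes close to the siPC2 libraries in this class. In siPC2 replicate 2, 54.7% of the transcripts under a mean of 10 lay more than 0.6 below siNR, against 40.7% and 42.2% in replicates 3 and 4. The part of its low depth in that share was not tested.

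The most abundant transcripts held a smaller share of the reads with siPC2. The 100 most abundant transcripts of each library held 22.3%, 23.6%, 23.1% and 25.3% of the reads in siNR replicates 1 to 4, and 17.5%, 18.8% and 18.8% in siPC2 replicates 2 to 4. The groups did not overlap, with means of 23.6% ± 1.26 (SD, n = 4) and 18.4% ± 0.749 (SD, n = 3). The transcripts that together held 50% of the reads of a library numbered 663 to 895 with siNR and 1078 to 1164 with siPC2. For both measures the two-sided exact permutation test gave p = 0.0571, the smallest value that 3 against 4 libraries allow, so that 0.05 could not be reached (adjusted over the 3 measures tested, p = 0.0857). The number of transcripts detected after thinning to one depth was the third measure. It was 27070 ± 406 (SD, n = 4) with siNR and 26753 ± 1036 (SD, n = 3) with siPC2 (exact permutation test, p = 0.743), and without siPC2 replicate 2 the difference changed sign, from -318 to 280.3 transcripts.

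The called transcripts changed their share of the reads. Of the normalized counts of all tested transcripts, those called lower held 34.1% ± 1.18 (SD, n = 4) with siNR and 20.1% ± 1.08 (SD, n = 3) with siPC2. Those called higher held 7.61% ± 0.612 (SD, n = 4) and 18.5% ± 0.755 (SD, n = 3), respectively. The lower calls, fewer in number, thus started from more than 4 times the reads of the higher calls and ended near them. These shares describe transcripts picked by the same contrast and were not tested. The loss was spread over many transcripts, since the 10 largest losses summed to -2.35 percentage points and those of all lower calls to -14.04. The largest single loss was from 0.951% of the reads to 0.638% (log2 fold change -0.73, edgeR adjusted p = 0.00188), and all 10 of these transcripts were called lower. The 10 largest gains summed to 1.51 percentage points, and 7 of these 10 transcripts were called, with log2 fold changes over the 10 from 0.082 to 4.598. The largest single gain was from 0.0446% to 0.334% (log2 fold change 2.76, edgeR adjusted p = 3.46e-10). That transcript held between 0.0375% and 0.0548% of the reads in the siNR libraries and between 0.314% and 0.359% in the siPC2 libraries.

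**Figure D3:**
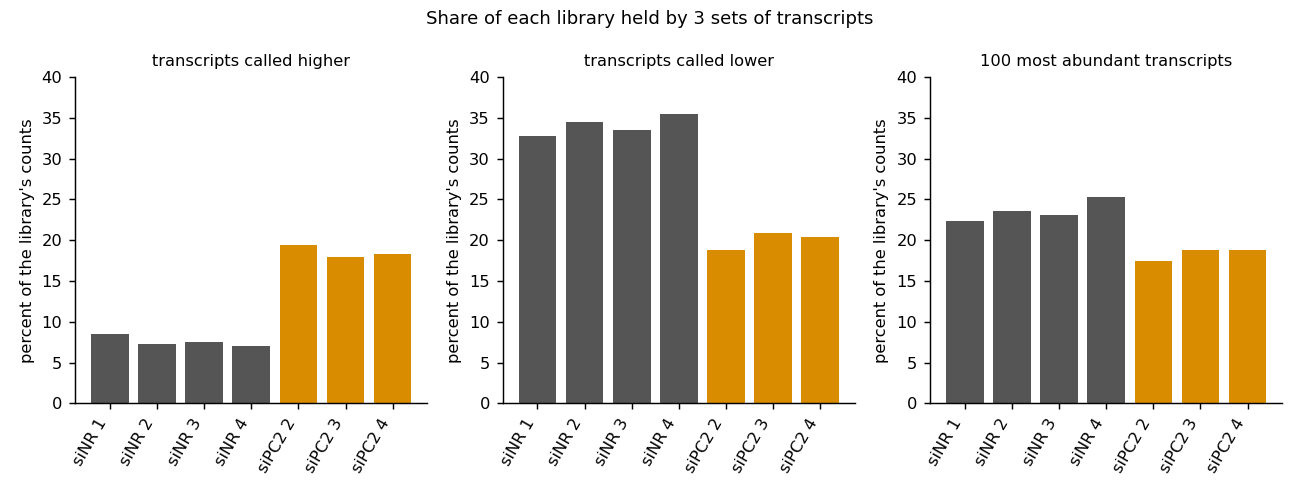
Percent of each library's counts held by the transcripts called higher, by those called lower (both of the normalized counts of tested transcripts) and by the library's own 100 most abundant transcripts (of its total), with siNR in grey and siPC2 in orange, 1 bar per library. The siPC2 libraries lie at 17.99% to 19.4%, 18.8% to 20.9% and 17.5% to 18.8%, and the siNR libraries at 7.07% to 8.47%, 32.8% to 35.5% and 22.3% to 25.3%.

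Most called changes were present in every library. All 3 siPC2 libraries lay above all 4 siNR libraries for 6456 transcripts (23.3% of those tested) and below them for 5846 (21.1%). Among the calls this held for 3225 of the 3333 higher and 2745 of the 2800 lower transcripts, which the test favours by its construction. The libraries of the other 163 called transcripts overlapped. The gap between the nearest libraries of the 2 groups, on the log2 scale of normalized counts plus 1, had a median of 0.63 for the separated higher calls and 0.57 for the lower ones. It exceeded 1 for 789 higher and 481 lower calls, and 2 for 176 and 76. Separation without a call was also common: of 6332 such transcripts, 4256 had a log2 fold change within 0.6 and 1441 had a mean count under 50.

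Over the called transcripts the 3 siPC2 libraries showed changes of similar size, which the test favours by its construction. The median difference from the siNR mean was 1.06, 0.97 and 0.99 in replicates 2, 3 and 4 for the higher calls, and -1.02, -0.88 and -0.92 for the lower calls. The library nearest to siNR was replicate 3 for 39.6% of the higher and 46.6% of the lower calls. The shallow replicate 2 was the nearest for 27.6% and 25.4%, the lowest shares of the 3. Among transcripts with a mean of at least 50 that were not called, replicate 2 reached further down. The 5th percentile of the difference was -1.88, -0.84 and -0.83 in replicates 2, 3 and 4, and the 95th 0.98, 0.97 and 1.025.

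To measure the response in libraries that had no part in the call, the fit was repeated without siNR and siPC2 libraries of the same number, and the difference between the 2 libraries left out was then taken. Without replicates 2, 2949 transcripts were called higher, and their median log2 difference in the libraries left out was 1.12. For the 3234 called without replicates 3 it was 0.91, and for the 3005 called without replicates 4 it was 0.997. The sign was positive for 97.6%, 99.0% and 98.8% of them. The transcripts called lower (2425, 2665 and 2618) had medians of -1.01, -0.84 and -0.98, with a negative sign for 98.2%, 98.5% and 97.5%. Transcripts that were not called, at a mean of at least 50, had medians between -0.0078 and 0.01 and were positive in 48.5% to 50.9% of cases. The medians in the fits themselves were 1.01 for the higher calls of each fit, and -0.94 to -0.97 for the lower ones. The libraries left out thus showed the response at nearly its fitted size.

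**Figure D4:**
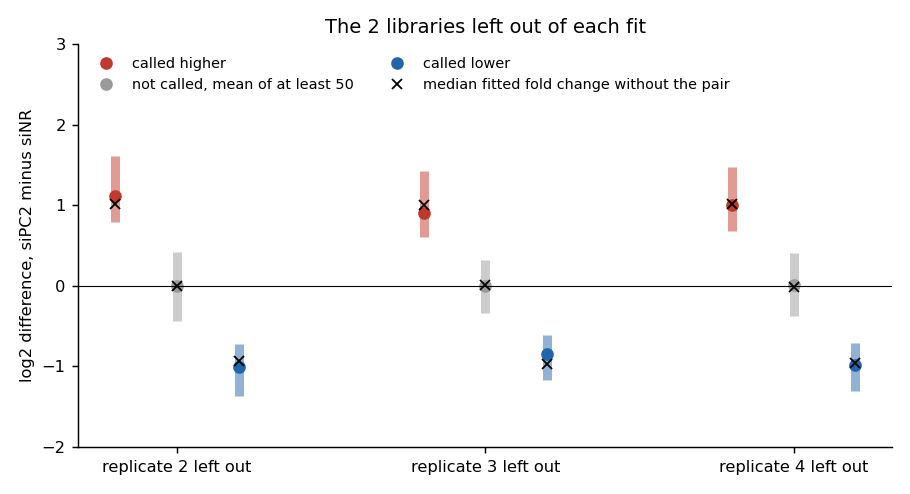
Log2 difference between the siPC2 and the siNR library left out of each of 3 fits (vertical axis), for transcripts called higher (red), called lower (blue) or not called (grey) in the fit without them. Points are medians, bars span the quartiles of the transcripts and crosses are the median fold changes of the fits. The medians of the higher calls lie at 1.12, 0.91 and 0.997, and those of the lower calls at -1.01, -0.84 and -0.98.

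The largest and the most consistent changes were found by 2 rules. The largest change was the highest log2 fold change among called transcripts whose libraries did not overlap and whose mean normalized count was at least 10 in both groups. The most consistent was the lowest edgeR p among the called transcripts whose libraries did not overlap. A low p favours a small spread beside the change, so small spreads of the transcripts picked by it follow in part from the choice. All fold changes and adjusted p-values of the 4 named transcripts come from edgeR's quasi-likelihood test over all tested transcripts. The spread behind them is that of all 20 libraries. With only the siNR and siPC2 libraries in the model, the same test gave adjusted p-values of 3.39e-05, 3.09e-06, 2.64e-05 and 7.12e-06, in the order below.

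The largest rise was that of ENSSSCT00000058978.3. Its normalized counts were 33.9, 15.1, 5.73 and 20.9 in siNR replicates 1 to 4 and 2292, 2207 and 2273 in siPC2 replicates 2 to 4. It was low in all controls and at a uniform high level in all siPC2 libraries. The log2 fold change was 6.92 (standard error 0.404, adjusted p = 4.23e-10), and the lowest siPC2 library stood 65.0-fold above the highest siNR library. The siNR level rests on 7 to 34 reads per library, and over the fits that each omitted 1 library the log2 fold change ranged from 6.55 to 7.39.

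The most consistent rise was that of ENSSSCT00000055013.2, with normalized counts of 572, 560.0, 579 and 544 in siNR replicates 1 to 4 and 4368, 4224 and 4304 in siPC2 replicates 2 to 4. The coefficient of variation was 2.73% among the siNR and 1.67% among the siPC2 libraries, so its spread was small in both groups beside a 7.62-fold difference. The log2 fold change was 2.93 (standard error 0.0638, adjusted p = 5.24e-15).

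The largest fall was that of ENSSSCT00000004468.4, from 1221, 748, 871 and 1132 in siNR replicates 1 to 4 to 28.0, 19.3 and 23.0 in siPC2 replicates 2 to 4. The controls spread over a wider range than the siPC2 libraries, and the groups were far apart, with the lowest control 26.7-fold above the highest siPC2 library. The log2 fold change was -5.43 (standard error 0.290, adjusted p = 1.63e-10). Its estimated counts were whole numbers in all 20 libraries, with no fraction left by the estimation. None of the other named transcripts had whole counts throughout.

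The most consistent fall was that of ENSSSCT00000053817.3, from 1746, 1918, 1809 and 2233 in siNR replicates 1 to 4 to 162, 157 and 151 in siPC2 replicates 2 to 4. The siPC2 libraries lay close together, with a coefficient of variation of 3.39% against 11.2% in the controls. The log2 fold change was -3.62 (standard error 0.101, adjusted p = 6.92e-14), a 12.3-fold fall.

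**Figure D5:**
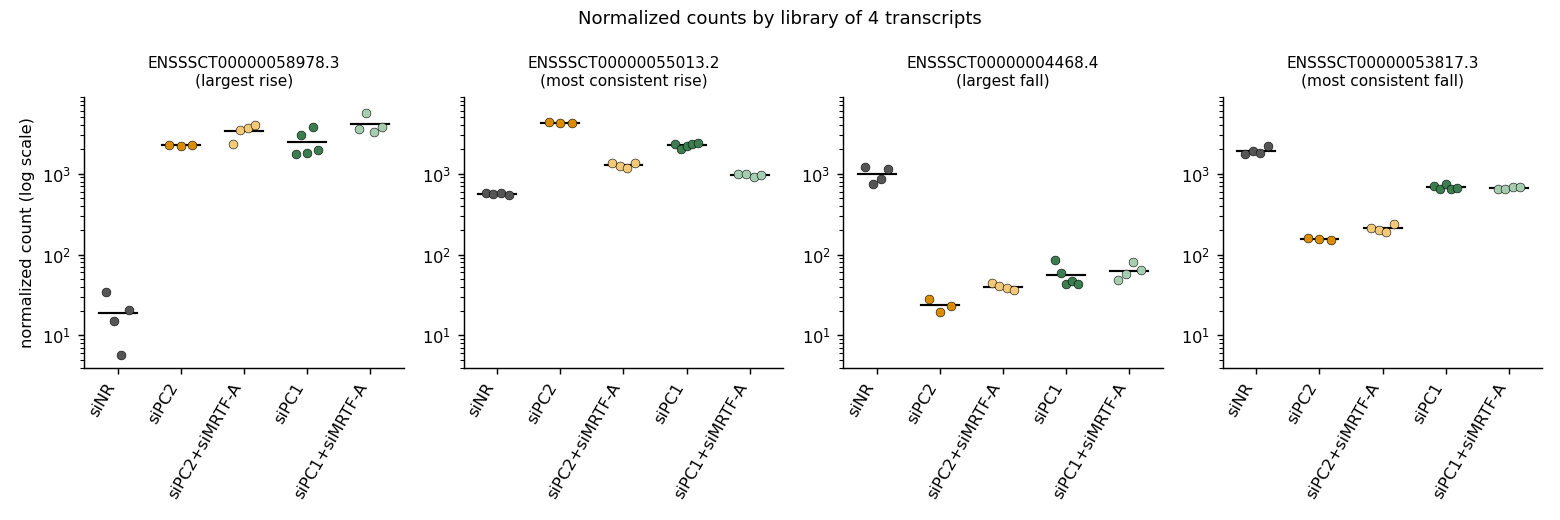
Normalized counts (vertical axis, log scale) of the 4 named transcripts in every library of the 5 groups, 1 point per library, with the group mean as a line. In each panel the siPC2 libraries lie apart from the siNR libraries, by 65.0-fold, 7.29-fold, 26.7-fold and 10.8-fold between the nearest libraries, in the order of the panels.

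The 4 transcripts were also measured in the 3 other silenced groups. These groups share the siNR controls, so their values are given side by side and were not compared with those above. ENSSSCT00000058978.3 was at 2486 ± 918 (SD, n = 5) with siPC1 and at 3370 ± 715 (SD, n = 4) with siPC2 and an siRNA against MRTF-A (myocardin-related transcription factor A, a cofactor of serum response factor) together. With siPC1+siMRTF-A it was at 4068 ± 1100 (SD, n = 4). ENSSSCT00000055013.2 was at 2253 ± 153 (SD, n = 5) with siPC1 and at 1279 ± 84.4 (SD, n = 4) with siPC2+siMRTF-A, and at 960.3 ± 39.3 (SD, n = 4) with siPC1+siMRTF-A. In the same order of groups, ENSSSCT00000004468.4 was at 55.8 ± 18.1 (SD, n = 5), 40.1 ± 3.64 (SD, n = 4) and 62.5 ± 13.9 (SD, n = 4). ENSSSCT00000053817.3 was at 683 ± 40.4 (SD, n = 5), 210.5 ± 19.8 (SD, n = 4) and 668 ± 17.8 (SD, n = 4).

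The next transcripts by the same rules are summarised without identifiers. The 20 largest rises had log2 fold changes from 4.45 to 6.92 (median 5.05), siNR means from 10.3 to 2477 and siPC2 means from 273 to 60010. They thus included both rare and abundant transcripts. The 20 largest falls ranged from -3.38 to -5.43 (median -3.95), with siNR means from 125 to 7106 and siPC2 means from 10.9 to 604. The 20 most consistent rises had log2 fold changes from 1.001 to 5.06 (median 2.21) with standard errors from 0.0383 to 0.167, and siNR means from 35.6 to 7340. The 20 most consistent falls ranged from -0.96 to -3.62 (median -1.66) with standard errors from 0.0478 to 0.166, and siNR means from 1597 to 21370. Only 3 rises and 2 falls were in both lists of 20. Counts were whole in every library of the series for 1 of the 20 largest and 1 of the 20 most consistent rises. The same held for 5 of the 20 largest and 1 of the 20 most consistent falls. The part of divided reads in the folds of the others was not tested. For the 20 largest rises, the log2 fold change over siNR with siPC1 had a median of 4.66 and ranged from 0.37 to 7.08, and with siPC2+siMRTF-A it had a median of 5.39 and ranged from -0.79 to 7.50. With siPC1+siMRTF-A the median was 5.48 and the range from -3.97 to 8.10. All of these contrasts share the siNR controls, and a choice by fold over siNR favours low siNR values. The minimum mean over all 20 libraries also favours rises that are high in the other silenced groups. For the 20 largest falls the medians were -3.67 with siPC1, -3.73 with siPC2+siMRTF-A and -3.03 with siPC1+siMRTF-A. In the same order of groups, the ranges were from -7.25 to -0.37, from -6.88 to -0.45 and from -7.19 to 0.70.

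The highest fitted folds belonged to transcripts that were nearly or wholly missing from 1 group. Of the 59 transcripts called higher by more than 5 on the log2 scale, 31 had a rounded count of 0 in every siNR library. Of the 34 called lower by more than 5, 26 had a rounded count of 0 in every siPC2 library. The fitted folds of such transcripts depend on the small count that the fit adds, and are not given. In the whole table, 89 transcripts were at 0 in every siNR library and above 0 in every siPC2 library, and 177 showed the opposite pattern. Most were rare, with a median normalized count of 14.5 and 8.76 in the group that had them. Of the 56 and 85 that were tested, 14 and 17 were called, beside 22.1% of all tested transcripts. The siNR libraries had more reads in all than the siPC2 libraries, and the part of depth in these counts was not tested. The most abundant of the first kind was at 881, 727 and 341 in siPC2 replicates 2 to 4. Against a limit of 3 counts over the 4 siNR libraries, it was at least 876-fold higher with siPC2. The most abundant of the second kind was at 1593, 1492, 1173 and 810.2 in siNR replicates 1 to 4, and at least 881-fold lower with siPC2, by the same limit over the 3 siPC2 libraries. These limits cover counting error only, and only 24 of the 89 and 50 of the 177 had undivided counts.

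An estimated count with a fraction comes from reads divided among transcripts. Of the tested transcripts, 984 had deposited counts that were exactly whole, with a tolerance of 0, in all 20 libraries, and are called undivided here. Of these, 60 had a mean from 200 to 1000 and none a higher one. Over all abundances, 8.13% of the undivided transcripts were called higher and 6.40% lower, against 12.2% and 10.2% of the divided ones. Most undivided transcripts had a mean under 50, where no call was possible, so these overall shares are not alike in abundance. Between 50 and 200, 31.7% of the 218 undivided transcripts were called higher and 21.6% lower, against 12.5% and 11.04% of the 4620 divided ones. The undivided transcripts also had the smaller standard error there (median 0.237 against 0.384), with a median size of the log2 fold change of 0.74 against 0.62. Between 200 and 1000, 18.3% of the 60 undivided transcripts were called higher and 26.7% lower, against 16.5% and 14.4% of the divided ones. Their part in the shape of the response was not tested.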

How the data were processed

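RNA-Seq was carried out on poly(A)-selected RNA. Per the submitters' processing notes and the study's methods, the authors trimmed the reads with Trim Galore, estimated counts per transcript with Salmon 0.14.1 against the pig Ensembl coding sequences (Sscrofa11.1), and deposited the estimated counts unnormalized. Coding sequences leave out the untranslated regions, and Salmon divides a read that fits several transcripts among them. The sums per gene and the HISAT2 alignment of the methods were not used here.

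After rounding to integers, the estimated counts were analysed with edgeR 4.0.16 in R 4.3.3 (filterByExpr, TMM factors, quasi-likelihood test, 1 model of the 5 groups of 20 libraries, contrast siPC2 minus siNR). Normalized counts were scaled to the mean effective library size, and standard errors follow from the F statistic. Transcripts were named by the 2 rules in the report, the most consistent one being other than the largest. Members, classes and rules were chosen with earlier results of these data known. The alternatives were DESeq2 1.42.0, other scalings, filters and thresholds, a model of both groups only, a replicate block, other abundance classes and each library left out. The procedure was also run on simulated data, in which far fewer transcripts were changed than were called here. That run does not show how the scaling behaves in so broad a response. Labels give single libraries no batch, and the read layout of each library is not given in the sources used here.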

Additional observations from a re-analysis of the deposited data

Results flagged for a closer look

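One of 10 values screened in the 4 siNR libraries lay far from the others. After thinning to one depth, 27680 transcripts were detected in siNR replicate 1, against 26840 to 26920 in replicates 2 to 4. The gap was 0.910 of the range of the group, above Dixon's critical value of 0.829. Such a screen flags about 1 in 20 groups by chance for each value screened, so that 1 flag among 10 values can arise by chance. Groups of 3 such as siPC2 cannot be screened. Without this library, 3413 transcripts were called higher and 2879 lower (edgeR's quasi-likelihood test).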

How the results depend on the processing

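The counts moved most with the use of the fold change: with no threshold on the fold, 5182 were called higher and 4488 lower, and with a test against the threshold (glmTreat) 1815 and 1296. The other settings kept both counts within 1.5 times. Leaving out each of the 7 libraries in turn gave 3059 to 3413 higher and 2542 to 2879 lower calls. In the same fits the classes had the following ranges of higher and lower calls: 11.6% to 14.2% and 8.93% to 11.3% from 50 to 200, 15% to 17.1% and 13.2% to 15.03% from 200 to 1000, 17.1% to 18.9% and 12.96% to 14.7% from 1000 to 5000, and 18% to 19.3% and 18.6% to 23.2% at 5000 and over. With classes set by the siNR libraries, 6.27% were lower from 50 to 200, 12.2% higher from 1000 to 5000, and 6.59% higher and 30.8% lower at 5000 and over. At 5000 and over, library totals gave 12.9% lower, and a model of both groups only, whose class means also come from these 7 libraries, gave 12.2% higher. The cause was not tested. The difference in detected transcripts ranged from -622 to 280.3 and reversed to 280.3 without siPC2 replicate 2, the shallowest library. The difference in the share of the 100 most abundant transcripts stayed between -5.65 and -4.65 percentage points, and that in the number of transcripts holding 50% of the reads between 297 and 374. The 4 named transcripts kept their calls in all of these fits. Without the 2 libraries of lowest total, a setting chosen after seeing the data, 3142 were higher and 2849 lower.

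Same-numbered siNR and siPC2 libraries did not deviate together from their group means (Spearman -0.127, -0.116 and -0.0861 for numbers 2, 3 and 4), and none correlated best with its own number. With the number as a replicate block, 3360 transcripts were higher and 2910 lower.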
